A study of Mus musculus with 20 samples.

Results

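The granins and the enzymes that process prohormones are the shared cargo and machinery of dense-core secretory granules. The 10 genes described here are Chga, Chgb, Scg2, Scg3 and Scg5 (granins and granin-like proteins), Pcsk1 and Cpe (enzymes that cleave and trim prohormones), Pcsk1n (an inhibitor of Pcsk1), Cplx2 (a regulator of vesicle fusion) and Resp18 (an endocrine granule protein). They were found as every array probe whose gene name equals one of these symbols, which gave 18 probes. Of these probes, 15 passed the filter on dim probes, and all 10 genes were tested among 17076 genes. Where a gene had more than 1 probe, its brightest probe stands for it.

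The arrays compared whole gut tissue of Spdef knockout (KO) mice with that of wild type mice. Spdef is an Ets-family transcription factor of the intestinal epithelium, named by the study for its part in goblet and Paneth cell maturation. The 4 tissues were colon and small intestine of adult mice at postnatal day 30 and of fetal mice at E18.5, late gestation. There were 3 pool pairs for adult colon, 2 for adult small intestine, 2 for fetal colon and 3 for fetal small intestine. Each pair was 1 KO pool and 1 wild type pool of 2 to 3 littermates, hybridised on 2 arrays with the dyes exchanged. The labels give neither the strain nor how the Spdef allele was made, and the KO animals carried no other labelled change. The 2 arrays of a pair were averaged to 1 replicate, and ratios below are log2 KO over wild type, so that a positive value means higher in KO.

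In the gut, granins and prohormone convertases are best known from enteroendocrine cells, the scattered epithelial cells that store peptide hormones and serotonin. The granins pack the granule, Pcsk1 cuts the prohormone and Cpe removes the basic residues left at the cut. Several of these proteins also occur in enteric neurons, so in whole tissue they report on both cell types. In such bulk tissue, fewer cells of a type and less RNA per cell cannot be told apart.

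The promoters of 9 of the 10 genes were matched in the RefSeq table (GRCm38.p6), and that of Cpe was not analysed here. The 4 stretches below show the 120 bases before the start of genes that carry a cAMP response element or its core, a motif that granin promoters are known for. Each reads 5′ to 3′ on the gene's strand, and capitals mark TGACG or the full TGACGTCA.
Chga: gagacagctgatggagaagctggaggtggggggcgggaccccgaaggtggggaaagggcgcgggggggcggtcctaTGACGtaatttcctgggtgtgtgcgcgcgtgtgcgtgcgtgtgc
Chgb: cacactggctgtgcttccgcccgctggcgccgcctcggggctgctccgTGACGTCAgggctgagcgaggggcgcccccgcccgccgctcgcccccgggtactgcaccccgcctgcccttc
Scg2: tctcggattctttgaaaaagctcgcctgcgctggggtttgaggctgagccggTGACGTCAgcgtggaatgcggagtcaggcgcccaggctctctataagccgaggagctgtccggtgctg
Pcsk1: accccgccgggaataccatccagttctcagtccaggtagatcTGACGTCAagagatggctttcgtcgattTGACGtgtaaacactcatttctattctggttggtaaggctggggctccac

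These stretches lie at chr12:102554821-102554940 for Chga (plus strand), chr2:132781522-132781641 for Chgb (plus strand), chr1:79440027-79440146 for Scg2 (minus strand) and chr13:75089737-75089856 for Pcsk1 (plus strand). The full TGACGTCA, which reads the same on both strands, was present in 3 of the 9 promoters (Chgb, Scg2 and Pcsk1) within 250 bases before the start, against 1.55% of 32851 promoters in the table. Its first base stood at -72 in Chgb, -68 in Scg2 and -78 in Pcsk1. The core TGACG, searched on both strands and contained in the full motif, was present in 6 of the 9, adding Chga, Scg3 and Scg5, against 17.8% of all promoters. In Chga the core stood at -44. The letters GGAT, the core that Spdef is known to prefer, were found on either strand in all 9 promoters and in 74.1% of all promoters. A match of letters is a description and shows no binding.

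The Spdef probe read lower in KO on 20 of 20 arrays, with ratios between -4.09 and -1.20. Between 39.8% and 71.6% of probes stood well above background in a channel. 2 fetal pairs went against their labelled region. Fetal small intestine pair 3 had a distal profile in both pools: Hoxb13, a marker of the distal gut, was at log2 11.58 in its KO pool and 11.61 in its wild type pool, and Lct, the lactase gene of the small intestine, at 8.98 in its KO pool and 8.76 in its wild type pool. Fetal colon pair 1 had a small intestine profile, with Hoxb13 at 6.93 in its KO pool and 7.0 in its wild type pool and Lct at 16.42 in its KO pool and 16.37 in its wild type pool. Both pairs were hybridised on the same slide. These pairs are therefore called by their labels, "labelled" being meant throughout. Only some results on fetal tissue are also given without that slide, and silence on the others does not mean that they stayed the same. KO and wild type were hybridised together in every pair, so each ratio compares pools of like region. Fetal small intestine pairs 1 and 2 differed by less than the noise between arrays and were counted as 1 sample, which leaves 9 replicates. Leaving out the slide of the 2 contrary pairs therefore leaves no replication in either labelled fetal group. Since nothing in the labels says whether the pools of a group came from separate litters, p-values measure only the spread between these pools.

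Few of the 10 genes passed the test of KO against wild type. Cpe and Cplx2 fell in adult colon KO pools, to 0.694 and 0.817 of the wild type level on the linear scale. No gene passed the test in adult small intestine, labelled fetal small intestine or labelled fetal colon. The 2 hallmark granins Chga and Chgb passed it in no tissue.

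**Figure D1:**
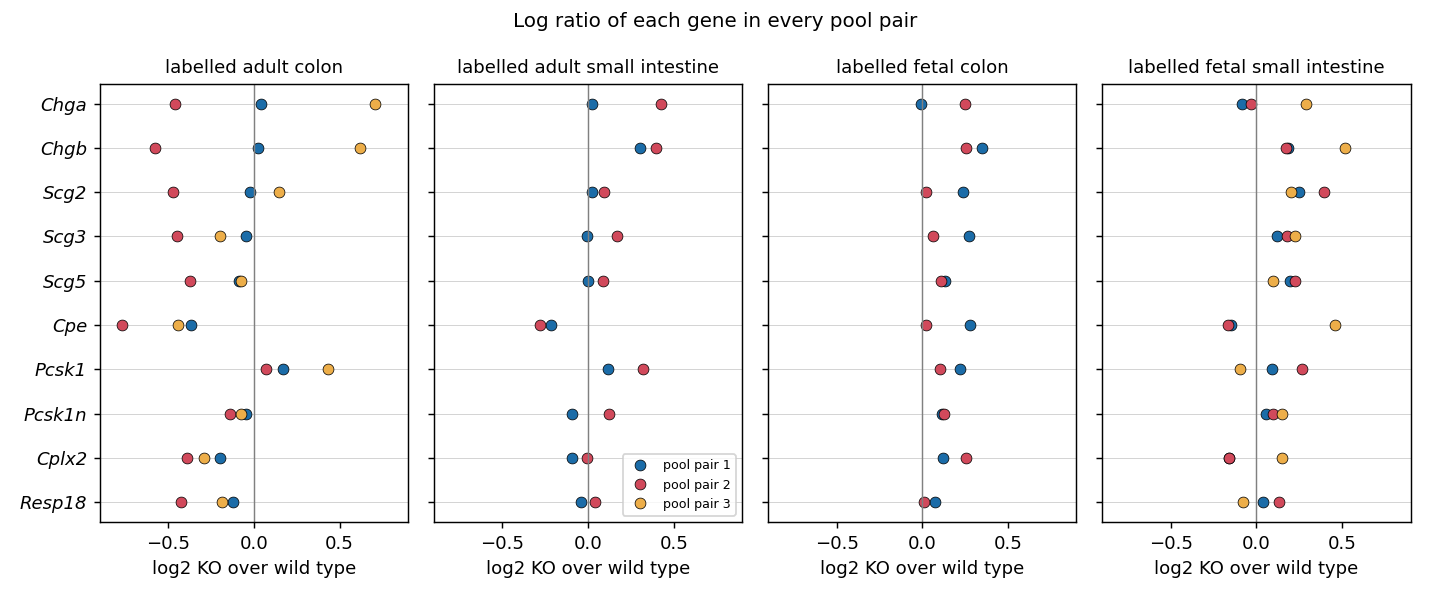
Log2 KO over wild type (x axis) of each of the 10 genes (y axis) in every pool pair, 1 panel a labelled tissue and 1 colour a pair. Cpe and Cplx2 sit below 0 in all 3 adult colon pairs, while Chga and Chgb spread from -0.58 to 0.71 there.

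Cpe, carboxypeptidase E, was read by a probe at chr8:67485215-67485274 (mm8, minus strand). In adult colon its log2 level was 11.20, 10.56 and 11.37 in the KO pools of pairs 1 to 3, against 11.57, 11.33 and 11.82 in their wild type pools. KO was lower in every pair, and lowest in pair 2. The groups overlapped, since the KO pool of pair 3 lay above the wild type pool of pair 2. The ratios were -0.37, -0.77 and -0.45, with a fitted change of -0.53 ± 0.12 (SE, n = 3) and an adjusted p of 0.0334 in limma's moderated test. The second Cpe probe gave ratios of -0.38, -0.77 and -0.25 in the same pairs. In the fit of all kept probes this second probe changed by -0.47 ± 0.12, with an adjusted p of 0.0532. Leaving out any single adult colon pair, or either labelled fetal colon pair, ended the call for Cpe, with adjusted p between 0.057 and 0.125 and a change between -0.61 and -0.41. In adult small intestine its KO pools stood at 10.34 and 10.19, against 10.56 and 10.47 in wild type pools. The change there of -0.25 ± 0.15 did not pass (adjusted p = 0.563).

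Cplx2, complexin 2, was read by its brightest probe at chr13:54393461-54393520 (mm8, plus strand). Its log2 level in adult colon was 9.70, 9.25 and 9.34 in KO pools, against 9.90, 9.64 and 9.63 in wild type pools. The KO pools of pairs 2 and 3 lay below every wild type pool and that of pair 1 did not. The ratios were -0.20, -0.39 and -0.29, a change of -0.29 ± 0.07 (SE, n = 3; adjusted p = 0.0348). The other 3 kept Cplx2 probes differed from this one. Their fitted changes were 0.02, 0.01 and -0.07, none past the threshold, and the probe at 0.01 stood well above background on no adult colon array. The probe at -0.07 did so in 3 KO and 5 wild type channels of the 6 adult colon arrays. The mean of all kept probes gave -0.08, with an adjusted p of 0.363. The probe next in brightness read 0.14, -0.41 and 0.34 in the 3 pairs, against the negative sign of the brightest probe throughout. The dye orders of this dimmer probe had opposite signs in pairs 1 and 3. The call on Cplx2 thus rests on 1 of 4 probes. It was also lost without any adult colon pair, either adult small intestine pair or either labelled fetal colon pair, with adjusted p between 0.0501 and 0.129.

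Against the array as a whole, 2 of 10 genes past the threshold in adult colon compare with 9.56% of all genes, and the 2 that fell with 5.65% of genes that fell. A count of 2 in 10 is close to that background. Other genes had estimates below 0 without passing. Resp18 stood at 7.66, 8.10 and 8.24 in KO pools and at 7.78, 8.53 and 8.43 in wild type pools of adult colon, a change of -0.25 ± 0.06 with an adjusted p of 0.0504. It passed from the scanner software's processed signals, by -0.49 (adjusted p = 0.0382), and in 2 further alternatives at its main value (adjusted p of 0.0328 and 0.0464). Resp18 and Scg5 stood well above background on 5 of the 6 adult colon arrays in both channels. Scg3, a granin that helps sort cargo to the granule, changed by -0.23 ± 0.08 (adjusted p = 0.105). Scg5, the chaperone 7B2 of the convertase PC2, changed by -0.18 ± 0.06 (adjusted p = 0.111). Both were lower in KO in all 3 pairs. The ratios of 6 of the 10 genes were below 0 in all 3 adult colon pairs, against 24.9% of all genes. The dye orders of Scg5, Resp18 and Pcsk1n had opposite signs in pairs 1 and 3, and those of Scg3 in pair 1.

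The pairs of adult colon were not alike. In pair 2, 9 of the 10 genes were lower in KO with a median of -0.44. The medians were -0.05 in pair 1 and -0.08 in pair 3, with 7 and 6 genes lower. Chga, chromogranin A and the classical marker of enteroendocrine cells, was at log2 12.42, 11.71 and 12.53 in KO pools, against 12.38, 12.17 and 11.82 in wild type pools. KO was thus lower in pair 2, higher in pair 3 and close to wild type in pair 1. Its change was 0.10 ± 0.19, with a 95% interval of -0.34 to 0.53. Chgb, chromogranin B, was at 13.88, 14.09 and 14.59 in KO pools, against 13.86, 14.66 and 13.98 in wild type pools, again with pairs 2 and 3 of opposite sign. Its change was 0.02 ± 0.18, with a 95% interval of -0.40 to 0.44. Neither interval excludes a change of the size seen for Cplx2. Scg2, secretogranin II, had ratios of -0.02, -0.47 and 0.15.

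**Figure D2:**
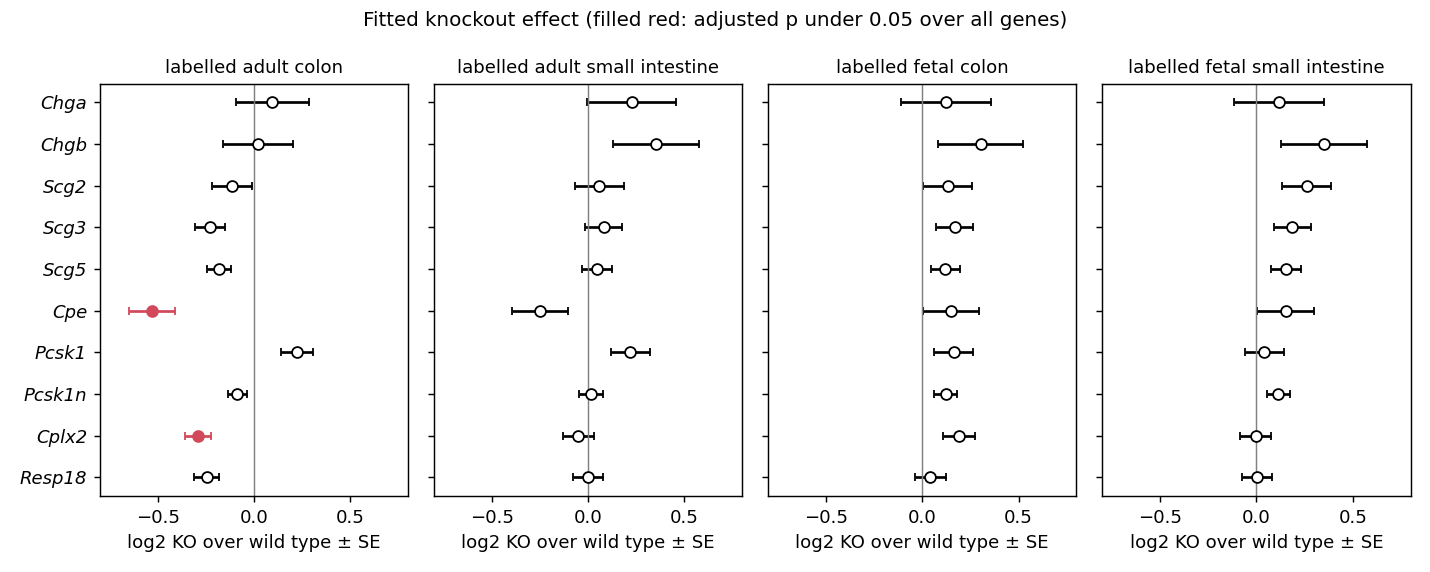
Fitted log2 KO over wild type with its SE (x axis) for the 10 genes (y axis) in the 4 labelled tissues, filled red where the adjusted p over all genes is under 0.05. Cpe at -0.53 and Cplx2 at -0.29 in adult colon are the only filled points, and in labelled fetal colon all 10 estimates are above 0.

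Pcsk1, prohormone convertase 1, ran the other way. Its only probe to pass the filter lies at chr13:75598281-75598340 (mm8, plus strand). In adult colon its log2 level was 9.64, 9.69 and 9.72 in KO pools, against 9.47, 9.62 and 9.29 in wild type pools. Every KO pool lay above every wild type pool, with a change of 0.22 ± 0.08 (adjusted p = 0.122). In adult small intestine it was 9.32 and 9.56 in KO pools, against 9.20 and 9.24 in wild type pools, with a change of 0.22 ± 0.10 (adjusted p = 0.439). Over the 10 pairs Pcsk1 was higher in KO in 9, and the 2 dye orders gave the same sign in all 10 pairs. Over the other genes the dye orders shared their sign in 5 (Resp18) to 9 of the 10 pairs. A dimmer Pcsk1 probe, which failed the filter, read -0.08, -0.07 and 0.22 in adult colon pairs 1 to 3. Averaged over the 4 tissues the change of Pcsk1 was 0.16 ± 0.05, with unadjusted p = 0.0093 in limma's test and adjusted p = 0.145, so it was not called. Chgb was likewise higher in KO in 9 of 10 pairs, averaging 0.26 ± 0.11 (adjusted p = 0.278). Across the 4 tissues 0 of the 10 genes passed in limma's test, 2 reached an unadjusted p under 0.05 (16.7% of all genes) and 1.79% of all genes passed. In adult small intestine 0 of 10 passed, with 0 at an unadjusted p under 0.05 (12.1% of all genes) and 0.398% of all genes passing.

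Averaged over the fetal replicates, all 10 estimates of the KO effect were above 0, with a median of 0.13 against 0.00 over all genes. Chgb, Scg2, Scg3, Scg5 and Pcsk1n were higher in KO in all 4 fetal replicates, 5 of 10 against 6.38% of all genes. In labelled fetal small intestine alone 9 of the 10 estimates were above 0, and that of Cplx2 was -0.0042. None of the 10 passed the test in this mean, with 3 at an unadjusted p under 0.05 (7.76% of all genes) and 0.533% of all genes past the threshold. Chgb showed the highest of these means, 0.33 ± 0.16 (adjusted p = 0.721). In labelled fetal colon its KO pools were at 14.57 and 13.68, against 14.23 and 13.42 in wild type pools. In labelled fetal small intestine they were at 13.84, 13.87 and 13.67, against 13.65, 13.70 and 13.15. KO was higher in all 5 fetal pairs, while the pools of each genotype overlapped. Scg3, Scg5 and Pcsk1n had means of 0.18 ± 0.07, 0.14 ± 0.05 and 0.12 ± 0.04 (adjusted p between 0.529 and 0.59). The second kept Pcsk1n probe read -0.04 in fetal small intestine pair 3, with a fetal mean of 0.02 ± 0.04 (unadjusted p = 0.609 in limma's test), so the place of Pcsk1n in the counts of 5 and 3 rests on its brightest probe. The 10 genes were read in the same pools and are not independent of each other. In labelled fetal small intestine 0 of 10 passed, with 0 at an unadjusted p under 0.05 (7.54% of all genes) and 0.445% of all genes past it. In labelled fetal colon 0 of 10 passed, with 1 at an unadjusted p under 0.05 (6.49% of all genes) and 0.287% of all genes past it.

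The difference of the KO effect between adult and fetal tissue, tested directly, passed for 0 of the 10 genes. Cpe had the largest, -0.54 ± 0.14 (unadjusted p = 0.0046, adjusted p = 0.104). Cplx2 followed with -0.26 ± 0.08 (adjusted p = 0.132). In limma's test 5 of the 10 reached an unadjusted p under 0.05 (19.4% of all genes), and 1.08% of all genes passed. Without fetal small intestine pairs 1 and 2, Cpe passed with a difference of -0.64 and an adjusted p of 0.049. Between adult colon and adult small intestine 0 of the 10 differed in the KO effect (0.158% of all genes), 2 of them at an unadjusted p under 0.05 (9.32% of all genes). For 6 of the 10 genes every adult colon replicate was below 0 and every labelled fetal colon replicate above 0, against 11.8% of all genes with such opposite signs. In labelled fetal colon pair 2 these ratios were as low as 0.0081 for Resp18 and 0.021 for Cpe. For 1 gene, Scg5, this held between adult colon and adult small intestine, against 6.25% of all genes.

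Markers of other cells moved in the same pairs. Of 26 markers of enteric neurons and glia, 22 were tested, and 9 fell and 0 rose in adult colon. Of all genes 9.56% passed there and 5.65% fell. S100b of glia changed by -0.38 ± 0.05 (adjusted p = 0.00428) and Syt1 of synaptic vesicles by -0.33 ± 0.05 (adjusted p = 0.00875). The median ratio of the 22 markers was -0.12, -0.25 and -0.18 in adult colon pairs 1 to 3, lowest in the same pair as Cpe. The log2 of their summed level ranged from 13.00 to 13.39 in KO pools and from 13.34 to 13.62 in wild type pools. In the adult small intestine pairs the median was -0.02 and -0.09, where Cpe read -0.22 and -0.28. In fetal small intestine pairs 1 and 2 it was -0.09 and -0.12, where Cpe read -0.15 and -0.17. In fetal small intestine pair 3 it was 0.13, where Cpe read 0.46. In fetal colon it was 0.09 and 0.02, where Cpe read 0.28 and 0.02. Of 10 smooth muscle markers none passed in adult colon, with medians of -0.22, -0.44 and -0.13. Their medians were -0.01 and -0.10 in the adult small intestine pairs. In fetal small intestine pairs 1 to 3 they were -0.27, -0.28 and 0.11, and in the fetal colon pairs 0.31 and -0.02. The part of neurons, glia and muscle in the values of Cpe and Cplx2 was not tested.

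**Figure D3:**
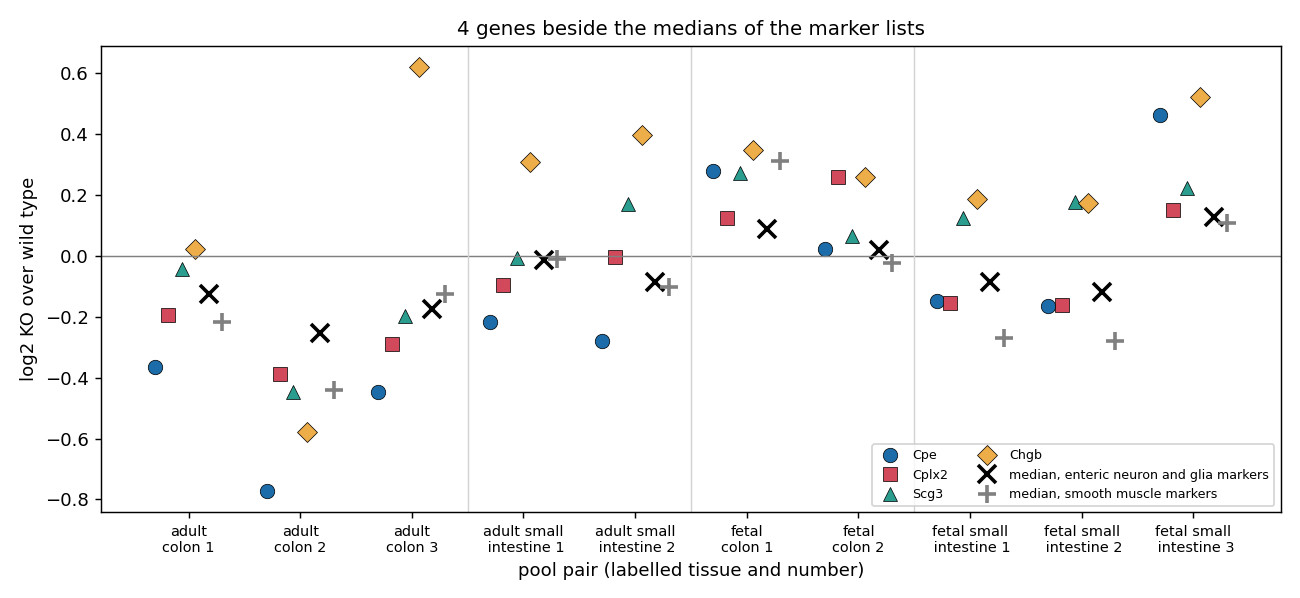
Log2 KO over wild type (y axis) of Cpe, Cplx2, Scg3 and Chgb in each of the 10 pool pairs (x axis), beside the median of 22 enteric neuron and glia markers and of 10 smooth muscle markers. The neuron median is at or below -0.12 in the 3 adult colon pairs, where Cpe runs from -0.77 to -0.37, and at 0.13 in fetal small intestine pair 3, where Cpe is at 0.46.

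Pancreatic RNA also differed between the pools of 2 adult colon pairs and of both adult small intestine pairs. In adult small intestine the median ratio of 18 acinar markers was 0.92 in pair 1 and -3.35 in pair 2. In adult colon it was -2.36 and -2.95 in pairs 1 and 3 but -0.01 in pair 2. The log2 of their summed level in adult colon was 16.29, 13.22 and 16.94 in KO pools, against 18.92, 13.47 and 19.91 in wild type pools. The 6 islet markers tested, which mark a further endocrine tissue, had medians of -0.07, 0.02 and 0.09 in the 3 pairs and changes between -1.14 and 0.10, none past the threshold. The log2 of their summed level was 11.34, 10.76 and 10.94 in KO pools, against 11.62, 11.10 and 11.05 in wild type pools, lower in KO in every pair. The part of acinar and islet RNA in the values of the 10 genes was not tested.

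A wider list held 33 other genes of the granule and of prohormone processing, of which 28 were tested. In adult colon 5 of them fell and 1 rose, with a median of -0.13, where 9.56% of all genes passed and 5.65% fell. Sytl4, a Rab27 effector of granule docking, fell by 0.41 ± 0.07 on the log2 scale (adjusted p = 0.0118). Snap25, a SNARE protein of endocrine and neuronal exocytosis, fell by 0.24 ± 0.05 on the log2 scale (adjusted p = 0.0317). In adult small intestine and in labelled fetal small intestine 0 passed, and in labelled fetal colon 1 fell. That gene was Pam, which amidates peptide hormones, at -0.62 ± 0.09 (adjusted p = 0.0317). Averaged over the 4 tissues 3 of the 28 fell and 1 rose, where 1.79% of all genes passed. Rab27b was lower in KO, by -0.32 ± 0.03 (adjusted p = 0.00334), and Syt13 higher, by 0.23 ± 0.03 (adjusted p = 0.00513).

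Among the hormones carried by these granules, Pyy and Gcg rose in KO in the mean over the 4 tissues. Pyy, the peptide YY gene of L cells, rose in KO in adult small intestine by 0.55 ± 0.07, in labelled fetal colon by 0.82 ± 0.07 and in labelled fetal small intestine by 0.84 ± 0.07, all past the threshold. Averaged over the 4 tissues Pyy rose by 0.59 ± 0.03 (adjusted p = 0.000106) and Gcg, the proglucagon gene, by 0.48 ± 0.06 (adjusted p = 0.00689). In that mean 3 of the 21 hormone and serotonin genes tested rose and 1 fell, where 1.79% of all genes passed. With a trended and robust prior 0 of all genes passed in it. The KO effect on Pyy also differed by stage, by -0.47 ± 0.06 for adult minus fetal (adjusted p = 0.0195). Whether the hormones and the granins differ was not tested. Of the 21 genes, 1 rose in each of adult small intestine, labelled fetal colon and labelled fetal small intestine. In adult colon 0 rose, and 1, the neuropeptide gene Vip, fell by 0.35 ± 0.05 on the log2 scale (adjusted p = 0.0104). Of 14 transcription factors of enteroendocrine cells tested, 0 passed in any of the 4 tissues. In the mean over tissues Foxa2 was higher in KO by 0.30 ± 0.05 (adjusted p = 0.0363).

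**Figure D4:**
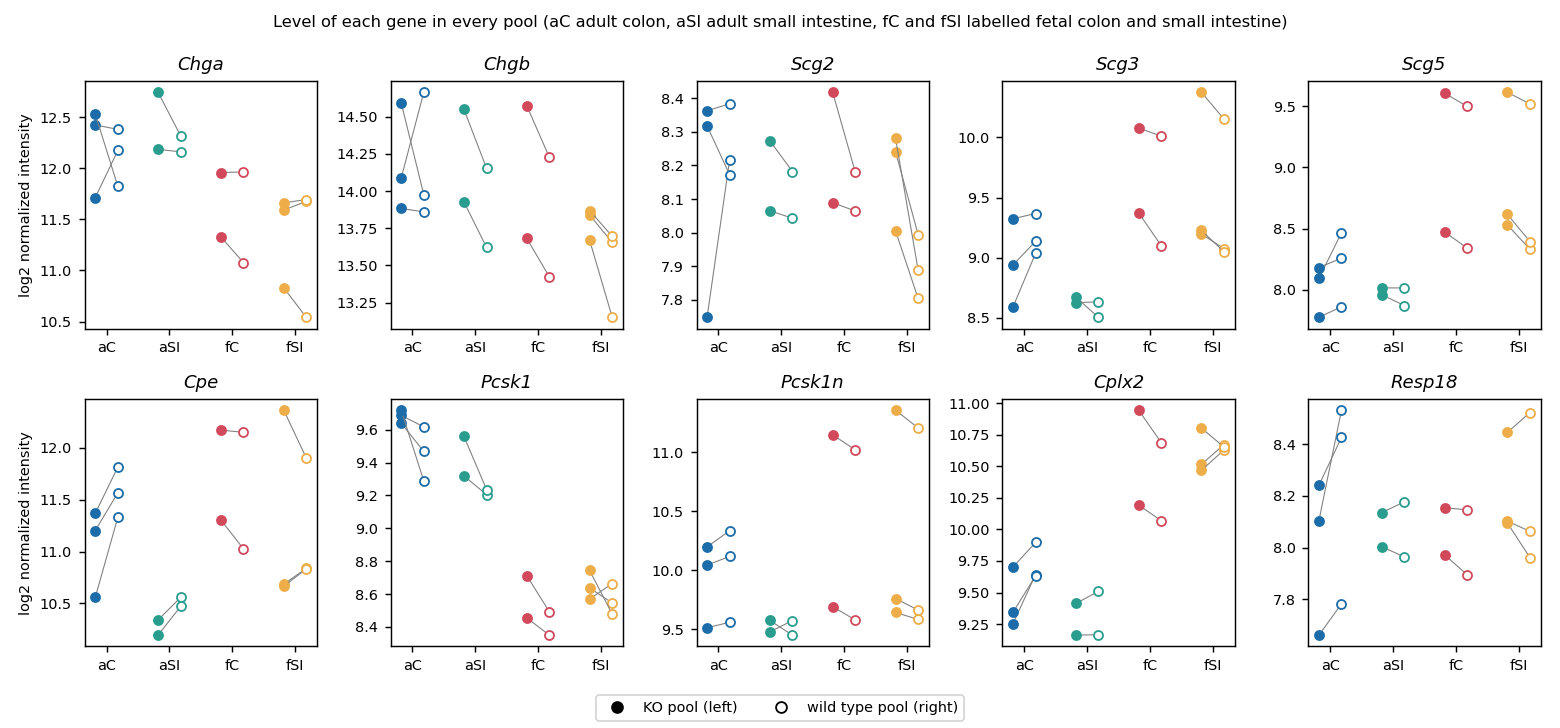
Log2 normalized intensity (y axis) of each gene in every KO pool (filled, left) and its wild type partner (open, right), by labelled tissue (x axis: adult colon, adult small intestine, fetal colon, fetal small intestine). Scg3, Scg5, Pcsk1n and Cpe split the fetal pools into a high and a low set, and Pcsk1 is above 9.1 in all adult wild type pools and below 8.7 in all fetal ones.

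In wild type tissue alone, 2 of the 10 genes differed between adult and fetal gut. Averaged over both tissues, Pcsk1 was higher and Cplx2 lower in adult than in fetal gut, against 22.7% of all genes, of which 11.5% were higher and 11.2% lower. Pcsk1 was at 9.47, 9.62 and 9.29 in adult colon and 9.20 and 9.24 in adult small intestine, against 8.49 and 8.35 in labelled fetal colon and 8.55, 8.48 and 8.66 in labelled fetal small intestine. Adult and fetal pools did not overlap for Pcsk1 and for Cplx2, 2 of 10 genes against 25.7% of all genes. The difference was 0.83 ± 0.12 (SE, 5 adult and 4 fetal replicates; adjusted p = 0.00443), and 1.04 ± 0.17 within colon (adjusted p = 0.0125). The call within colon was lost without either labelled fetal colon pair, with adjusted p of 0.0514 and 0.0638. Within small intestine the difference of 0.63 ± 0.18 did not pass (adjusted p = 0.0776).

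Cplx2 was at 9.90, 9.64 and 9.63 in adult colon and 9.51 and 9.17 in adult small intestine, against 10.07 and 10.69 in labelled fetal colon and 10.67, 10.63 and 10.65 in labelled fetal small intestine. All adult pools lay below all fetal pools, with a difference of -0.99 ± 0.17 (adjusted p = 0.00789). Within small intestine it was -1.32 ± 0.25 (adjusted p = 0.0236), where 8.83% of all genes passed. Leaving out either adult small intestine pair, adult colon pair 3, fetal small intestine pairs 1 and 2 or fetal small intestine pair 3 ended that call, with adjusted p between 0.0537 and 0.183. The other 3 Cplx2 probes differed in the same direction by -0.43, -0.30 and -0.21 in the mean over tissues, none past the threshold. Within colon 1 of the 10 genes passed, that being Pcsk1, against 9.15% of all genes.

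Chga was at 12.38, 12.17 and 11.82 in adult colon and 12.16 and 12.32 in adult small intestine, against 11.96 and 11.08 in labelled fetal colon and 11.68, 11.69 and 10.54 in labelled fetal small intestine. Its difference of 0.87 ± 0.29 between adult and fetal tissue missed the threshold (adjusted p = 0.0731). Scg3 and Scg5 ran the other way, by -0.71 ± 0.28 (adjusted p = 0.108) and -0.86 ± 0.33 (adjusted p = 0.097). Without the slide that carried both pairs of contrary profile, neither labelled fetal group kept any replication. The differences were then 0.80 for Chga, -0.66 for Scg3 and -0.86 for Scg5.

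For Scg3, Scg5, Pcsk1n and Cpe the wild type fetal pools fell into a high and a low set. This split was picked with the values known, and its share over all genes was not counted. Scg3 was at 10.15 in fetal small intestine pair 3 and 10.01 in fetal colon pair 2, against 9.05 to 9.10 in the other 3 fetal pools. Scg5 was at 9.52 and 9.5 in those pools, against 8.33 to 8.39 in the other 3. Pcsk1n, the proSAAS gene, was at 11.21 and 11.02, against 9.58 to 9.66. Cpe was at 11.90 and 12.15, against 10.83 to 11.03. Chga ran the other way, at 10.54 and 11.08 in those pools, against 11.68 to 11.96. So did Chgb, at 13.15 and 13.42, against 13.65 to 14.23. Scg2, Pcsk1 and Cplx2 showed no such split. Resp18 was at 8.52 and 8.15 in those pools, against 7.90 to 8.06 in the other 3. Those same 2 pools carry the distal profile, and the mean log2 level of the enteric neuron and glia markers was 9.91 and 10.03 in them, against 8.65 to 8.67 in the other 3. Their part in these levels was not tested. No gene of the 10 passed in labelled fetal colon against labelled fetal small intestine, where 0.00586% of all genes did and where 0 of the 10, and 0.568% of all genes, reached an unadjusted p under 0.05 in limma's test. Without the slide of the contrary pairs 0 of the 10 passed and 513 genes did, against 1 gene with it.

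Between adult colon and adult small intestine the wild type levels of 0 of the 10 genes passed, against 3.16% of all genes, and 1 reached an unadjusted p under 0.05 in limma's test (18.3% of all genes). That gene was Cpe, at 11.57, 11.33 and 11.82 in colon, against 10.56 and 10.47 in small intestine. The pools did not overlap, and the difference was 1.06 ± 0.41 (adjusted p = 0.229). In a fit of the adult pools alone, chosen after seeing the data, the same difference passed with an adjusted p of 0.0321. The fit without the slide named above gave identical values and is no second line of evidence. It leaves the labelled fetal groups without replication, so its spread comes from the adult pools alone. From high to low, the wild type means of Cpe were 11.59 ± 0.79 in labelled fetal colon, 11.57 ± 0.24 in adult colon, 11.37 ± 0.75 in labelled fetal small intestine and 10.52 ± 0.06 in adult small intestine (SD, n = 2, 3, 2 and 2). The first 3 of these do not differ beyond their spread. The means of Chga ran from 12.24 ± 0.11 in adult small intestine and 12.12 ± 0.28 in adult colon to 11.52 ± 0.63 in labelled fetal colon and 11.11 ± 0.81 in labelled fetal small intestine (SD, n = 2, 3, 2 and 2), and neighbours in that order lie within their spread.

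**Figure D5:**
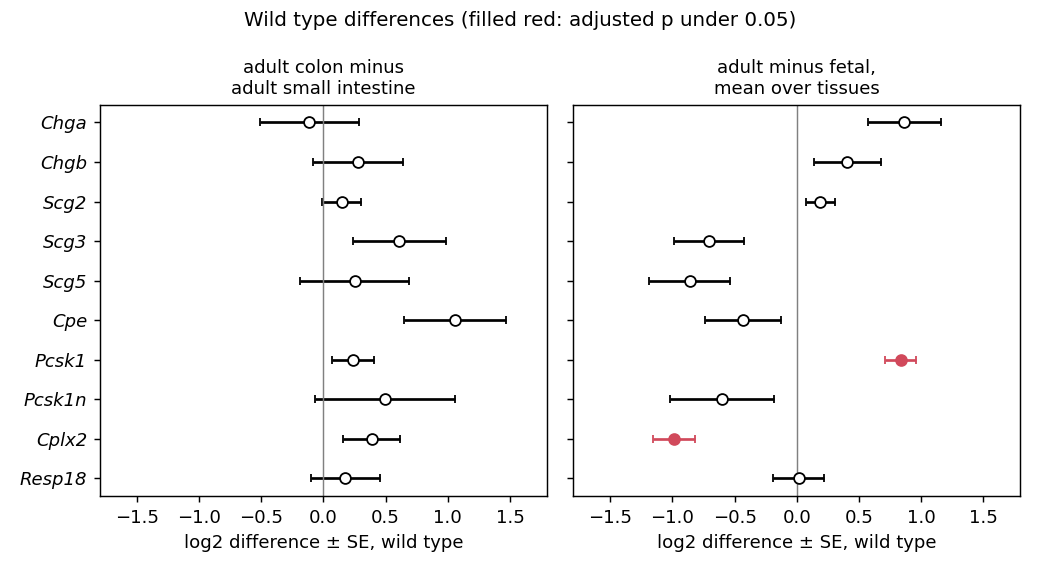
Difference in log2 level with its SE (x axis) for the 10 genes (y axis) in wild type pools, adult colon minus adult small intestine on the left and adult minus fetal on the right, filled red where the adjusted p is under 0.05. Pcsk1 at 0.83 and Cplx2 at -0.99 are filled on the right, and none is on the left.

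The genes whose wild type level ran most like that of Cpe over the 9 replicates were Pakap, Gnai1 and Actg2, the last a smooth muscle actin, with Pearson r of 0.991, 0.987 and 0.985. Those most like Chga were Slfn2, Naa60 and Parp9, with r of 0.977, 0.973 and 0.973. These values are a description over 9 pools that share tissue makeup, and they were picked as the highest of all genes tested.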

How the data were processed

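RNA was measured on 20 two-colour Agilent arrays, 500 ng of pooled total RNA per label. Per the labels the deposited files are scanner output of Agilent Feature Extraction 9.5.3, per the submitters' processing notes, and hold an intensity per spot and channel. The log10 ratio the authors deposited in the same files, dye over dye after their software's correction, was not used. The authors' deposited series table holds log2 KO over wild type ratios, which matched the scanner ratios, and was used only as an alternative. Background was corrected with normexp (offset 50), arrays were normalized by loess with control spots at weight 0, and channel levels by Aquantile (limma 3.58.1, R 4.3.3). Dye swaps were averaged. The filter asked a probe to stand well above background on every array of 1 group in 1 genotype. All 17076 genes entered 1 limma fit with the 4 groups as terms, 9 replicates and 5 residual degrees of freedom. P-values were adjusted by Benjamini-Hochberg with a threshold of 0.05. The number of pools limits the precision. The fit was also run on simulated ratios with independent noise and with changes set in adult colon only. That simulation held no shared tissue makeup and no contrary pairs, and its outcome is not given here. The genes named are the 10 members and Spdef, up to 2 genes per list and comparison with the smallest adjusted p, and the 3 most like Cpe and Chga. Marker genes of region and the values beside them were chosen with their values known. The members, the 10 lists and the tests were chosen with earlier results of these data known. Replicate numbers did not pair samples. Probe sequences and exon positions were not used here, and probe coordinates are those of the files (mm8).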

Additional observations from a re-analysis of the deposited data

Results flagged for a closer look

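The ratio was below 0 in every adult colon replicate and above 0 in every labelled fetal colon replicate for 6 of the 10 genes, against 11.8% of all genes. The difference of the mean log2 ratios, adult colon minus labelled fetal colon, was -0.677 for Cpe, -0.482 for Cplx2, -0.398 for Scg3, -0.3 for Scg5, -0.288 for Resp18 and -0.207 for Pcsk1n. In this pair of tissues the difference was not tested. Labelled fetal colon pair 1 carries a small intestine profile, and in that pair the 6 genes read between 0.08 and 0.28. In pair 2 they read between 0.0081 and 0.26, with Cpe at 0.021 and the second kept Cpe probe at -0.0053.

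Scg5 read below 0 in all 3 adult colon pairs and above 0, at 0.00 and 0.09, in the adult small intestine pairs, a difference of -0.224 between the means, as did 6.25% of all genes. Its direct test, the difference of the KO effect, gave -0.22 ± 0.10 and an adjusted p of 0.542.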

How the results depend on the processing

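Of the 2 members past the threshold for KO in adult colon, 0 remained called with median centring, with each group fitted alone and in the authors' series table, 1 with the replicate block (fetal small intestine pairs 1 and 2 separate), and 0 to 2 when 1 replicate was left out. With processed signals Cpe was lost (adjusted p = 0.0608) and Resp18 passed, with the mean of all kept probes Cplx2 was lost and Resp18 passed, and with the fetal pairs separate Resp18 joined, for 3. For the adult minus fetal difference of the KO effect the main count of 0 became 1 with the replicate block, and was 0 to 1 without 1 replicate. In the wild type mean over tissues the replicate block called 3, Chga joining at 0.77 (adjusted p = 0.0372), against 2. The replicate block changed no other count of members. Same-numbered pools did not deviate together (r from -0.13 to 0.15). In wild type, adult colon minus adult small intestine called 1 member, Cpe, in the adult fit, against 0. Without the slide whose fetal pairs had contrary profiles Cpe gave identical values, since the spread then came from the adult pools alone. Adult minus fetal small intestine called 2 with no filter, 0 with the mean of all kept probes and 2 with the fetal pairs separate, against 1, and 0 to 2 without 1 replicate. Adult minus fetal colon called 2 without that slide (Scg5 joining), against 1, and 0 to 1 without 1 replicate. With slide as a random block, at a correlation within slide of -0.737 for wild type levels, the mean over tissues called 5, against 2. Over all genes that setting called 7686 of 17076, against 3871. The cause was not tested. Over all genes, KO in adult colon called 1632, of which 668 were higher, against 57 with median centring, of which 11 were higher. KO in the mean over the 4 tissues called 305 of all genes, against 0 with a trended and robust prior. For adult minus fetal colon 1035 of 1563 were higher, against 1729 of 3286 from processed signals. No call changed sign.

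Pcsk1 and Cplx2, adult minus fetal over both tissues, passed in all 20 alternatives, by 0.79 to 1.21 and -1.14 to -0.48. Cpe in adult colon passed in 15 of 24 and Cplx2 in 12 of 24, with unchanged sign in all.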
